A study of Mus musculus with 2 samples.

Results

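Wide open promoters of protein coding genes were examined in the open chromatin list of mouse cardiac progenitor cells (CPCs). They were chosen by their measured width and position. An interval was kept when it was at least 2500 bp wide, when its midpoint lay at most 1000 bp from the transcription start site (TSS) assigned to it, and when that TSS carried a RefSeq coding transcript accession. Of 26232 distinct intervals, 504 met this rule, and each belonged to a different gene symbol. The wide intervals were 4.45% of the 11331 coding promoter intervals, defined by the same distance and accession without the width. Counted by gene, 504 of 11015 genes with a coding promoter interval, or 4.58%, had one.

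Accessible DNA had been tagged with the Tn5 transposase and sequenced (ATAC-seq) in CPCs made from E14 Tg(Nkx2-5-EmGFP) embryonic stem cells. The cells carry a green fluorescent reporter for Nkx2-5, an early cardiac homeodomain factor, and the labels give the strain as C57BL/6 and the stage as day 5 of directed differentiation, reached through BMP4, Activin A, VEGF and FGF factors. The 2 samples were replicates of this 1 group, had no knockdown, and came from 1 cell line. They share 1 list of intervals called in both, so no interval has a value per replicate, read depth is unknown, and all confidence intervals below cover counting over regions and not the spread between differentiations.

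Most open promoters are a nucleosome-depleted stretch just upstream of the TSS, flanked by positioned nucleosomes. Many lie in CpG islands, stretches of high GC content in which the CpG dinucleotide has been kept because it is rarely methylated there. Accessible stretches that run well past the TSS on both sides are known from promoters of regulatory genes, in particular transcription factors, signalling genes and rapidly induced genes. Promoters of housekeeping genes for ribosomes and respiration are typically open over a short, sharply bounded stretch.

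The sequence just before the TSS is shown for the widest intervals and for the widest ones of the cardiac transcription factor and SWI/SNF lists, because base composition and motif content are compared further on. A promoter of the ribosomal protein list, whose genes had narrow intervals, is added for contrast and was chosen after the values were seen. Each run ends at the base before the assigned TSS or where the annotated UTR begins, reads 5′ to 3′ on the strand of the gene in mm9, and has every CpG in capitals.
Midn: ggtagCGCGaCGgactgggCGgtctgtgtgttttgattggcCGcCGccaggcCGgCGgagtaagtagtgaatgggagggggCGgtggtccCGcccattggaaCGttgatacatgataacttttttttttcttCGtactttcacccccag
Rcor2: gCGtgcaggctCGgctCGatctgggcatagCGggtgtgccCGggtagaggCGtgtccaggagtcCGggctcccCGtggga
Sp5: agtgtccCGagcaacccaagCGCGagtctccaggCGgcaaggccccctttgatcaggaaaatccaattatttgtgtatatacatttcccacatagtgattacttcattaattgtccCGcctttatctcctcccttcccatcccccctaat
Zfpm1: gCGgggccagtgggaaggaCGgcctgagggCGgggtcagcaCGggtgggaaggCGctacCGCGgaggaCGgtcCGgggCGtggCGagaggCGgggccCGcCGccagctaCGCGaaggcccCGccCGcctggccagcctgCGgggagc
Arid2: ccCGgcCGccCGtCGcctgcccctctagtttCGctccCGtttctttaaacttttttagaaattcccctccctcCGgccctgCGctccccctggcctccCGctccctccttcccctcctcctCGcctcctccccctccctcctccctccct
Rpl21: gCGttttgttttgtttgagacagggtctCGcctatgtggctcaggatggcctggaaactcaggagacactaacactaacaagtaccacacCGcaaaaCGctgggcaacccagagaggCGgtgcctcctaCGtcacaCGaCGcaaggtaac
The Midn run is chr10:79612278-79612426 on the plus strand and holds 12 CpGs in 149 bases, a GC box (GGGCGG) and a CCAAT box. It lies wholly inside the annotated span of longer Midn transcripts. The assigned TSS of Midn matches no annotated TSS of the gene, and the nearest annotated one lies 203 bp upstream of it. The Rcor2 run is chr19:7341735-7341814 with 8 CpGs in 80 bases and none of the 10 motifs searched. The Sp5 run, chr2:70312830-70312979, had a GC content of 48.0% with 5 CpGs in 150 bases, a CCAAT box and a GATA site (AGATAA). The Zfpm1 run, chr8:124805892-124806038, had a GC content of 79.6% with 19 CpGs in 147 bases and a GC box, and also lies inside the span of a longer transcript. The Arid2 run, chr15:96117803-96117952, had 10 CpGs and a GC box. The Rpl21 run, chr5:147644316-147644465, had 8 CpGs and, like that of Rcor2, none of the 10 motifs searched, and its interval was 1172 bp wide. All 6 genes are on the plus strand, and among the wide promoters shown the runs differ in CpG content as much as any of them differs from Rpl21. For Brd2, among the 4 widest, annotated UTR fills the whole stretch and no sequence is shown.

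The widths of the wide intervals, which chose them, ranged from 2500 to 6669 bp. Their median was 2802 bp with quartiles of 2633 and 3227 bp, and 325 of the 504 (64.5%) were under 3000 bp, 144 lay from 3000 to 4000 bp, 22 from 4000 to 5000 bp and 13 at 5000 bp or more. The other 10827 coding promoter intervals had a median of 1306 bp. The distribution ran on without a gap at the threshold. Just inside it, Esyt1, Hist1h4a, Tpm4 and Zfp367 were tied at 2500 bp. Just outside lay Bend4 at 2497 bp, Zc3h4 at 2496 bp and Phykpl at 2495 bp. Together the wide intervals covered 1.53 Mb, which is 9.36% of the 16.4 Mb in coding promoter intervals.

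**Figure D1:**
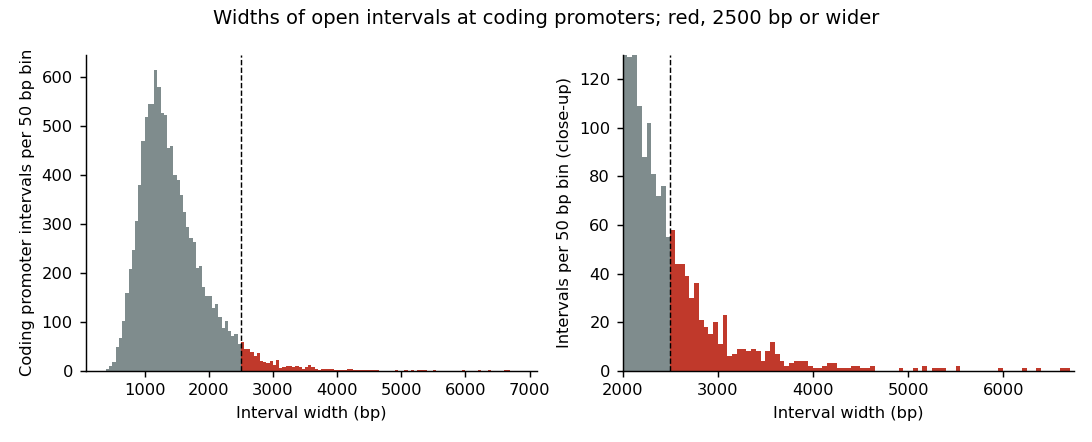
Number of coding promoter intervals by width in bins of 50 bp, over the whole range (left) and from 2000 bp up (right, with the count axis ending at 130). Red bars are the 504 intervals of at least 2500 bp, the dashed line is the threshold, and the counts fall smoothly across it to single intervals beyond 5000 bp.

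Some intervals stood on more than 1 line of the list. The overlap step described in the methods would give this when 1 interval of a replicate overlapped more than 1 interval of the other replicate. This held for 42 of the 504 wide intervals (8.33%, 95% Wilson interval 6.22% to 11.1%), among them Brd2, Foxo3, Arid2, Tgfb1 and Notch1, and for 78 of 10827 others (0.720%). The share rose with width, from 0.155% at 1000 to 1500 bp to 3.50% at 2000 to 2500 bp, and was 8.38% at 3000 bp or more. If the lines arose in this way, the other replicate had called at least 2 separate intervals in each of these 42 stretches, which the list cannot show. Without such intervals 462 wide ones remained, and the medians and shares for composition, reach, gene length, neighbours and further intervals given below stayed inside their confidence intervals.

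With these limits on width and distance, the assigned TSS always lies inside a wide interval. A protein coding TSS of the GENCODE annotation, which was not used in the choice, lay inside 501 of the 504 (99.4%) and 95.8% of the other coding promoter intervals. The exceptions among the wide ones, named after the values were seen, were Gm10406, H2-Bl and B330016D10Rik. The gene was found in the annotation, by its current or an older symbol, for 502 of the 504, and all values relative to the TSS rest on these 502. For 331 of them (65.9%), and for 60.9% of the others, the assigned TSS equalled an annotated TSS of the gene within 1 bp. Start sites of 2 or more coding genes lay inside 63 (12.5%) of the wide intervals and 9.59% of the others, and a longer interval has more room for this.

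The 10 widest intervals are given with what their genes are known to do. Midn, which encodes midnolin, a protein that takes early response proteins to the proteasome, had the widest (chr10:79609317-79615985, 6669 bp). Rcor2, a corepressor of the CoREST family, followed with 6640 bp (chr19:7338212-7344851). Brd2, a reader of acetylated histones, had 6377 bp (chr17:34254650-34261026), and Sp5, a zinc finger factor and known Wnt target, had 6239 bp (chr2:70309120-70315358). Next came Tle3, a Groucho-type corepressor, with 5952 bp, Six5, a homeodomain factor, with 5535 bp, and Gse1, found in histone deacetylase complexes, with 5502 bp. The forkhead factor gene Foxo3 had 5357 bp, Zfpm1, the cofactor of GATA factors also known as FOG1, had 5331 bp, and Pdgfa, which encodes a growth factor ligand, had 5295 bp. Of these, Brd2 and Foxo3 stood on 2 lines.

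The wide intervals reached out on both sides of the TSS. The median reach was 1332 bp upstream (95% interval 1290 to 1392 bp) and 1621.5 bp downstream (1548 to 1674 bp), where the other coding promoters had 584 and 705 bp. Both reaches follow from the width that chose the intervals and are given as a description. The downstream side was the longer one in 305 of 502 (60.8%), and in 65.0% of the others. Among the 10 widest the balance varied. Sp5 reached 3860 bp upstream and 2378 bp downstream, and Rcor2 reached 3673 and 2966 bp. Brd2 reached 2334 bp upstream and 4042 bp downstream, the longest downstream reach of all, and Zfpm1 reached 1904 and 3426 bp. Gse1 was close to symmetric, at 2783 and 2718 bp. Across the wide intervals the upstream and downstream reach ran opposite to each other (Spearman's rho -0.55 over 502 regions), which a width near the threshold and a midpoint within 1000 bp of the TSS impose in part. Per wide interval, 1182 bp were intron, 365 bp coding exon and 430 bp UTR of coding transcripts on average, and 1060 bp lay outside them. As shares of the bases, introns were 38.9% and coding exons 12.03%, against 37.7% and 9.65% in the other coding promoter intervals.

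**Figure D2:**
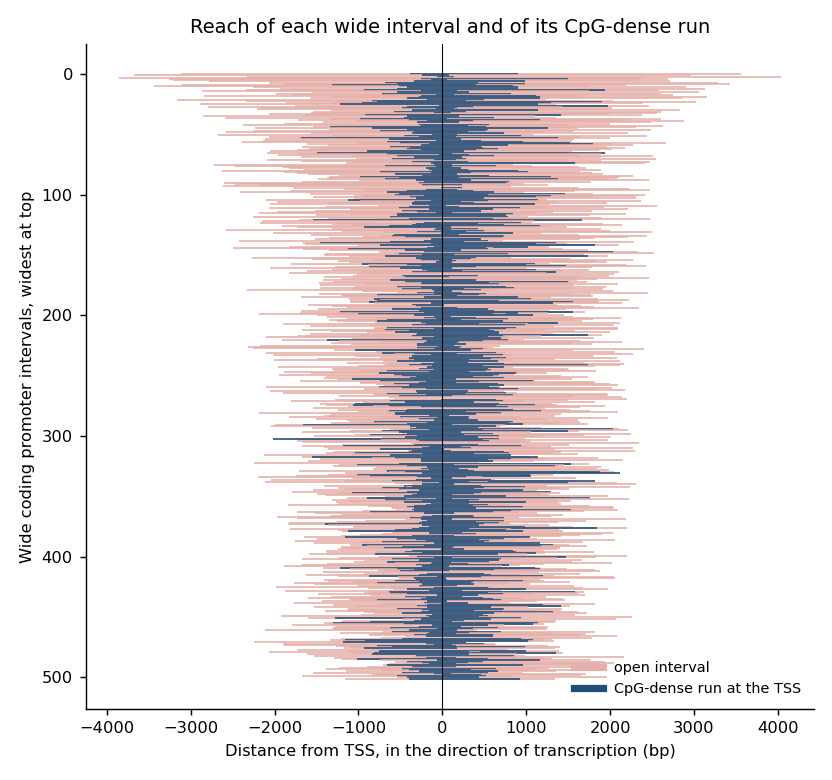
Each of 502 wide coding promoter intervals drawn as a pink line around its TSS in the direction of transcription (bp), sorted by width with the widest at the top. The blue line is the CpG-dense run at the TSS, which ends well inside the open interval on both sides in most rows.

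The TSS regions of the wide intervals were richer in GC and CpG than those of the other coding promoters. In the 1 kb centred on the TSS, the median GC content was 65.9% (65.2% to 66.3%) against 60% (59.9% to 60.2%), and the median ratio of observed to expected CpG was 0.787 (0.765 to 0.814) against 0.734 (0.730 to 0.738). A GC content of at least 50% with a CpG ratio of at least 0.6 was met by 421 of 502 (83.9%) and by 73.4% of the others, a difference of 10.5 percentage points (95% Newcombe interval 6.89 to 13.5). At the TSS itself the CpG ratio was alike, at 0.844 and 0.850 in 200 bp windows, and the gap opened to the sides. At 1000 bp upstream it was 0.437 in the wide intervals against 0.219, and at 1000 bp downstream 0.545 against 0.302. GC content was 53.0% against 45.0% at 1000 bp upstream and 58.25% against 46.5% at 1000 bp downstream. Far outside, at 4000 bp upstream, it was still 47.0% against 45.0%.

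**Figure D3:**
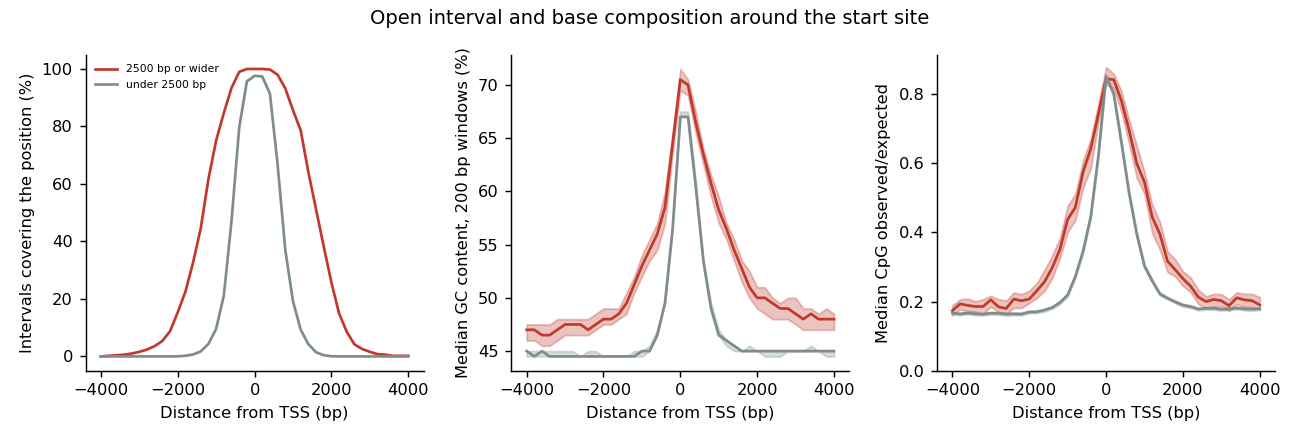
Share of intervals that cover each position (left, %), median GC content (middle, %) and median ratio of observed to expected CpG (right) in 200 bp windows by distance from the TSS (bp), for wide coding promoter intervals (red, 502) and the others (grey, 10707), with 95% intervals of the medians as bands. The CpG curves meet at the TSS, near 0.85, and separate on either side.

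The composition did not follow the width all the way. Median GC content was 54.1% for coding promoter intervals under 1000 bp, 59.3% at 1000 to 1500 bp, 64.1% at 1500 to 2000 bp and 65.9% at 2000 to 2500 bp. It was then 65.8% (65.0% to 66.6%) at 2500 to 3000 bp and 66.0% (64.3% to 67.2%) at 3000 bp or more. The CpG ratio ran the same way, with 0.613, 0.730, 0.785, 0.796, 0.796 and 0.777 in these 6 classes. Within the wide intervals width had next to no rank correlation with GC content (Spearman's rho 0.04 over 502 regions) or CpG ratio (-0.03), while over the 10707 others rho was 0.58 and 0.32. The length of the CpG-dense run, the unbroken stretch at the TSS of 200 bp windows with a GC content of at least 50% and a CpG ratio of at least 0.6, also levelled off. Its median was 480, 700, 900, 960, 920 and 880 bp in the 6 classes. In the wide intervals it was 910 bp (840 to 1000 bp), against 700 bp in the others. How much of the interval the run filled follows in part from the width that chose the intervals and is given as a description, at 29.7% of the width in the wide intervals and 54.0% in the others. The open interval passed the ends of the dense run on both sides in 96.8% of the wide intervals, by a median of 913 bp upstream and 1043 bp downstream. In the others it did so in 81.8%, by 303 and 274 bp. Run lengths, fill and these shares count intervals without a dense window at the TSS as a run of 0 bp. These were 36 of 502 wide intervals (7.17%) and 9.97% of the others, so the shares include intervals with no run to pass.

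A minority of the wide promoters were not CpG-rich. The pair of criteria was missed by 81 of 502, with Rcor2 (6640 bp, GC content 63.2%, CpG ratio 0.414) and Brd2 (6377 bp, 63.8%, 0.445) the widest of them and Lin28a, an RNA-binding protein of early embryonic cells, at 4529 bp with a ratio of 0.399. No dense window at the TSS was found in 36 (7.17%), and in 9.97% of the others. Sp5 is one of these, with a GC content of 58.2% and a CpG ratio of 0.720 over 1 kb. The lowest ratios, named after the values were seen, were 0.145 at Cd151 (2571 bp), which encodes a tetraspanin of the cell surface, and 0.173 at Lrrn4 (3046 bp). The highest were 1.11 at Sfmbt1 (2518 bp), a Polycomb-type gene, and 1.11 at U2af2 (2791 bp), a splicing factor gene.

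Short motif strings were then counted, on either strand, in the window from 250 bp before to 50 bp after the TSS, since promoters of different gene classes are known to carry different elements. None of the 10 strings contains another. The clearest contrast was the ETS site (CCGGAAG), bound by ETS factors such as GABPA and common at housekeeping promoters. It was present at 28 of 502 wide promoters (5.58%, 3.89% to 7.94%), at 17.5% of the other coding promoters and at 10.9% of all 22359 annotated protein coding promoters. The difference from the other coding promoters was -11.9 percentage points (-13.8 to -9.46). The share fell with width, from 19.3% under 1000 bp and 19.6% at 1000 to 1500 bp through 14.8% and 9.95% to 5.26% at 2500 to 3000 bp and 6.15% at 3000 bp or more. GC content moves with width, so the count was repeated in promoters with a GC content of 60% to 70% over 1 kb, an alternative added after the data were seen. There 16 of 280 wide promoters (5.71%) and 16.0% of 4478 others had the string, a difference of -10.3 points (-12.8 to -6.80). The widest promoters with the string, named after the values were seen, were Gse1, Klhl21 and Traf4.

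The GC box (GGGCGG), bound by Sp and KLF factors, went the other way. It was present at 83.9% of the wide promoters, 69.9% of the others and 44.0% of all annotated ones, a difference from the others of 13.9 points (10.4 to 17.0). At a GC content of 60% to 70% the shares were 85.4% and 82.2%, and the interval of the difference, -1.64 to 6.95 points, included 0. Over all promoters the GC box share rose mainly below the threshold. It was 52.7% under 1000 bp, 69.8% at 1000 to 1500 bp, 79.0% at 1500 to 2000 bp and 81.0% at 2000 to 2500 bp. It was then 85.4% at 2500 to 3000 bp and 81.0% at 3000 bp or more. The CRE (TGACGTCA), bound by CREB and ATF factors, was rare at the wide promoters, with 7 of 502 (1.39%) against 3.60%, a difference of -2.20 points (-3.01 to -0.707). At matched GC content the interval was -2.57 to 0.966 points. The TATA box (TATAAA) was present at 6.37% and 5.73%, and at matched GC content at 6.43% and 3.66%, a difference of 2.77 points (0.368 to 6.31). For the other 6 strings the interval of the difference included 0 both over all promoters and at matched GC content. These were the CCAAT box (34.7% of the wide promoters and 38.2% of the others), the E-box CACGTG (7.57% and 10.2%), the NRF1 core CGCATGCG (2.39% and 3.66%), the YY1 site AAGATGG (4.78% and 6.66%), the GATA site AGATAA (4.38% and 5.09%) and the TEAD site GGAATG (9.16% and 11.2%). GATA and TEAD factors act in early heart cells, and these counts concern letters in 300 bases and not binding.

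**Figure D4:**
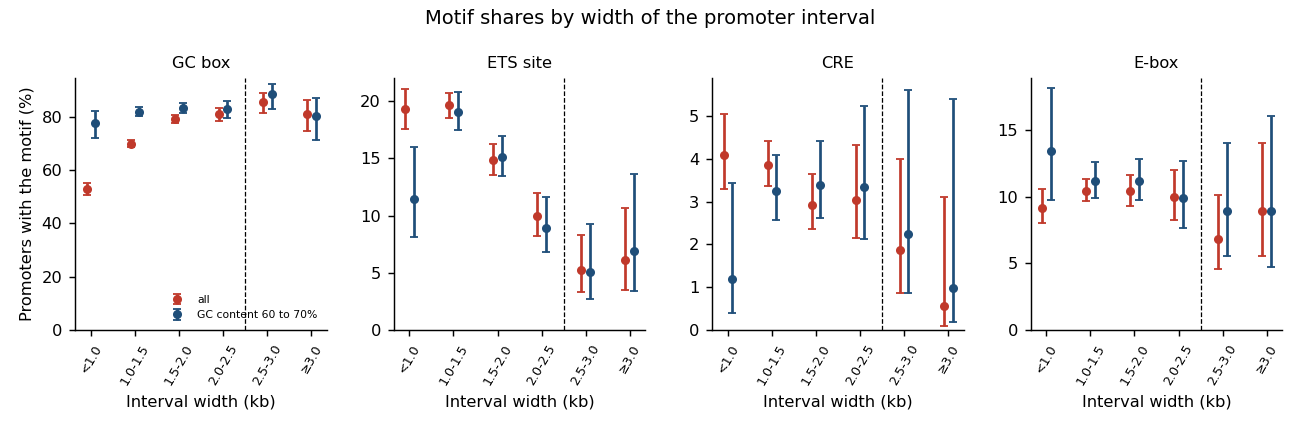
Share of coding promoters (%) with 4 of the motifs in the window around the TSS, by width of the promoter interval (kb), for all promoters (red) and those with a GC content of 60% to 70% (blue), with 95% Wilson intervals. To the right of the dashed line are the wide intervals, where the ETS site is at 5.26% and 6.15% of all promoters.

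Genes with a wide promoter interval were more often short. A longest annotated transcript span of at most 5 kb was found for 96 of 502 (19.1%, 15.9% to 22.8%) and for 10.8% of the other genes' intervals, a difference of 8.37 points (5.12 to 12.1). The median span was 18307 bp (15060 to 21259 bp) against 26686 bp. The share was 10.3% under 1000 bp, 10.4%, 10.9% and 13.2% in the next classes, then 19.2% at 2500 to 3000 bp and 19.0% at 3000 bp or more. Of the 96, 7 were on the list of early response genes described further on, and 7 of the 11 wide intervals of that list were at short genes. Without the genes of all 22 lists the shares were 17.8% and 10.0%. Transcripts of a single exon made up 5.78% against 2.25%. The widest intervals at short genes were those of Sp5, with a span of 2807 bp, and Six5, with 3802 bp. The whole longest transcript lay inside the open interval at 8 of 502 genes (1.59%) and at 0.420% of the others, and a wider interval has more room for this. Named after the values were seen, these were the histone genes H1fx, Hist1h2ai, Hist1h4a and Hist2h2ac, the transcription factor gene Mafa, Sct, which encodes the hormone secretin, Ndufaf3, an assembly factor of respiratory complex I, and Prob1, whose span of 3021 bp lay in an interval of 4474 bp. The histone genes have close copies, so the short reads behind their intervals may be shared among copies.

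A coding gene on the opposite strand had its TSS within 1 kb at 47 of 502 wide promoters (9.36%) and at 9.44% of the others, a difference of -0.08 points (-2.40 to 2.84). Which side was higher depended on the limits, since it was 11.5% against 9.12% with a width limit of 2000 bp and 8.38% against 9.46% with 3000 bp. Within 500 bp the shares were 6.18% and 8.12%, and within 2500 bp 13.7% and 11.0%, and both intervals of the difference included 0. Between the width classes the share was lowest under 1000 bp, at 4.39%, and highest at 1500 to 2000 bp, at 13.1%.

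Genes with a wide promoter interval more often had further intervals assigned to them. At least 1 was found for 274 of 504 (54.4%, 50.0% to 58.7%) and 41.0% of the others, a difference of 13.4 points (8.93 to 17.8), and 3 or more for 83 (16.5%) and 8.44%. The share rose over the width classes, from 38.5% under 1000 bp to 58.7% at 3000 bp or more. The largest number was 9 further intervals, at Irx3, an Iroquois homeodomain factor gene, and at Hs3st3b1, a heparan sulfate sulfotransferase gene named after the values were seen, followed by 8 at Gse1 and 7 at Tle3. In contrast Midn, Rcor2, Brd2 and Six5, all among the 10 widest, had none. The nearest other interval of the list lay a median of 13526.5 bp away, against 19551 bp for the others, and within 5 kb in 18.8% against 11.5%. Within 1 kb the order was the opposite, with 6 of 504 (1.19%) against 2.95%, a difference of -1.76 points (-2.48 to -0.341). These gaps run from edge to edge, so they depend in part on the width that chose the intervals and are given as a description.

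Across the autosomes, between 3.18% (chromosome 3) and 6.69% (chromosome 11, 61 intervals) of the coding promoter intervals were wide. The X chromosome stood apart, with 2 of 358 (0.559%, 0.153% to 2.01%) against 502 of 10973 (4.57%) on the autosomes. They were at Usp9x, a deubiquitinase gene, with 2750 bp, and G530011O06Rik with 2764 bp, both named after the values were seen. The coding promoter intervals on X were narrower as a whole, with a median of 1088.5 bp (1037 to 1132 bp) against 1341 bp (1329 to 1351 bp), and 3.91% against 13.6% reached 2000 bp. Their GC content was 58.0% against 60.3% and their CpG ratio 0.648 against 0.739. Among promoters with a GC content of at least 60%, 0.725% of 138 on X (0.128% to 3.99%) and 7.25% of 5668 on the autosomes (6.60% to 7.96%) were wide. Called width depends on read depth. Depth and copy number of the X chromosome in these cells are not known from the list, and their part in the narrower intervals was not tested.

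Width was then set beside what the genes do, with 22 gene lists of 16 to 76 genes and no gene on more than 1 list. Of the 504 genes with a wide interval, 75 were on a list. Each count below is over the list genes with a coding promoter interval and is read against the 4.58% of all such genes, whose median for the widest coding promoter interval was 1339 bp. The lists are described by counts and medians without a test. They were chosen with earlier results of these data known, so a high share is a description and not independent support. Corepressors had the highest share, with 8 of 18 genes (44.4%, median 2181 bp). Besides Rcor2 (6640 bp) and Tle3 (5952 bp) they included Zfp703 (4615 bp), Ctbp2 (3597 bp), Trim28 (2942 bp), Rcor3 (2767 bp) and Rcor1 (2636 bp), so all 3 genes of the CoREST family on the list were included. Early response genes, which are switched on within minutes of a stimulus without new protein synthesis, followed with 11 of 32 (34.4%, median 2043 bp). After Midn the widest were the mRNA decay factor gene Zfp36l2 (4597 bp), Jun (4227 bp), Egr1 (3602 bp), Atf3 (3338 bp), Egr2 (3290 bp), Fos (3086 bp) and Mycn (2995 bp).

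Signalling pathways of the early embryo were each above the background share. For Notch signalling, which passes between touching cells, 6 of 21 genes (28.6%) had a wide interval. These were the ligand genes Jag1 (4135 bp), Jag2 (3226 bp) and Dll1 (3085 bp), the receptor gene Notch1 (3351 bp), Hes6 (2952 bp) of the Hes family, and Numbl (2642 bp), a relative of the Notch inhibitor Numb. For Wnt signalling it was 8 of 38 (21.1%), with the receptor genes Fzd5 (3784 bp), Fzd2 (3212 bp) and Fzd8 (2532 bp), the ligand genes Wnt3 (2532 bp) and Wnt5b (2504 bp), Tcf7l1 (2899 bp) of the nuclear factors, and Axin2 (2633 bp) and Gsk3b (2556 bp) of the β-catenin destruction complex. The FGF list had 4 of 25 (16.0%), with the receptor gene Fgfr3 (4385 bp) and the feedback inhibitor genes Spry4 (3302 bp), Spred1 (2797 bp) and Spred2 (2796 bp). The BMP, Nodal and TGF-β list had 5 of 32 (15.6%). Its genes were the ligand genes Tgfb1 (3914 bp) and Nodal (2624 bp), the receptor gene Bmpr2 (2743 bp), the inhibitory Smad gene Smad6 (3635 bp), and Id4 (2637 bp) of the Id family of BMP target genes. Of 7 Hedgehog genes, Gas1 (3642 bp), a coreceptor gene, had one.

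Among transcription factors the picture was mixed. Of 24 cardiac transcription factor genes 5 (20.8%, median 1910 bp) had a wide interval. These were Zfpm1, Foxc1 (3128 bp), Meis2 (2976 bp), Irx3 (2675 bp) and Tbx18 (2580 bp), a factor of the sinus venosus and epicardium. The core cardiac factors did not. Isl1, the factor the study is about, had 1261 bp at its TSS (rank 6386 of 11331 by width) and Nkx2-5 had 1135 bp. The coding promoter interval of Tbx5 was 1100 bp wide, but its midpoint lay 771 bp downstream of the assigned TSS. With an upstream reach of -222 bp, this interval did not contain that TSS. All these widths were below the median of all genes. Gata4 had an interval of 3724 bp whose midpoint lay 1036 bp upstream of the assigned TSS, so that it just missed the distance limit and is not counted. It was one of 59 wide intervals of coding genes at a distance of over 1000 and at most 2000 bp. The forkhead and SOX list had 5 of 30 (16.7%), namely Foxo3, Sox12 (4440 bp), Foxp4 (3275 bp), Foxl2 (3089 bp) and Foxd3 (2675 bp). Of 9 pluripotency regulator genes, Lin28a (4529 bp) and Sox2 (2932 bp) were included. Of 26 neural regulator genes there were 2, Nkx6-1 (3031 bp) and Lhx2 (3006 bp). None of 11 Hox genes had one, and the widest there was 2251 bp, but a list this small can easily hold none.

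Chromatin regulators ranged from the background share up. The SWI/SNF list, the remodelling complex that opens chromatin with energy from ATP, had 1 of 20 (5.00%), Arid2 at 4243 bp (chr15:96115067-96119309), a subunit of the PBAF form. Its ATPase gene Smarca4, which encodes Brg1, had 1526 bp, and the nearest interval of Smarcd3, which encodes Baf60c, was 1367 bp wide and lay 3252 bp downstream of the assigned TSS. Polycomb and Trithorax genes had 4 of 29 (13.8%), the histone methyltransferase genes Kmt2a (3836 bp) and Kmt2c (2536 bp) and the Polycomb genes Cbx7 (2751 bp) and Phc1 (2598 bp). Histone acetylation genes had 2 of 21 (9.52%), Brd2 and the acetyltransferase gene Kat6b (3053 bp).

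Among genes of general cell functions, the cell cycle list had 6 of 42 (14.3%), with Cdk6 (3966 bp), E2f3 (3950 bp), Ccnd2 (3205 bp), Cdkn1a (2849 bp), E2f1 (2801 bp) and Ccne2 (2685 bp), most of which act at the passage from G1 into S phase. RNA splicing factors had 3 of 31 (9.68%), Hnrnpl (3443 bp), U2af2 (2791 bp) and Srsf1 (2556 bp). The circadian list had Bhlhe40 (2861 bp) out of 16 (6.25%), with a list median of 1998 bp. At a width limit of 2000 bp the share of the circadian list was 50.0%, against 13.5% of all genes. Respiratory chain genes had 1 of 45 (2.22%), Ndufb10 at 2528 bp, with a list median of 1196 bp. None of 55 ribosomal protein genes had one. Their intervals ran from 678 to 1863 bp with a median of 1172 bp. None of 12 genes of the sarcomere, the contractile unit of heart muscle, had one either, and their intervals ran from 1076 to 2145 bp with a median of 1465 bp. For the liver list, which stands for an unrelated tissue, no gene had a coding promoter interval. The ETS site, present at 17.0% of all coding promoters with an interval, stood at 38.2% of 55 ribosomal protein, 29.0% of 31 splicing factor and 19.0% of 21 histone acetylation promoters. It stood at 15.6% of 45 respiratory chain, 14.3% of 21 Notch, 10.0% of 20 SWI/SNF, 6.25% of 32 early response, 5.56% of 18 corepressor and 5.26% of 38 Wnt promoters. In the remaining lists it was at 12.5% of 16 circadian, 8.33% of 24 cardiac, 7.14% of 42 cell cycle and 6.25% of 32 BMP, Nodal and TGF-β promoters. For FGF it was 4.00% of 25, and for Polycomb and Trithorax and for forkhead and SOX 3.45% of 29 each. None of 26 neural, 12 sarcomere, 11 Hox, 9 pluripotency and 7 Hedgehog promoters had it. The sarcomere and Hox lists held neither the string nor a wide interval, but lists of 12 and 11 genes can easily hold none at a share of 4.58%. Their median widths, 1465 and 1387 bp, were above the 1339 bp of all genes. The differences between lists were not tested.

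**Figure D5:**
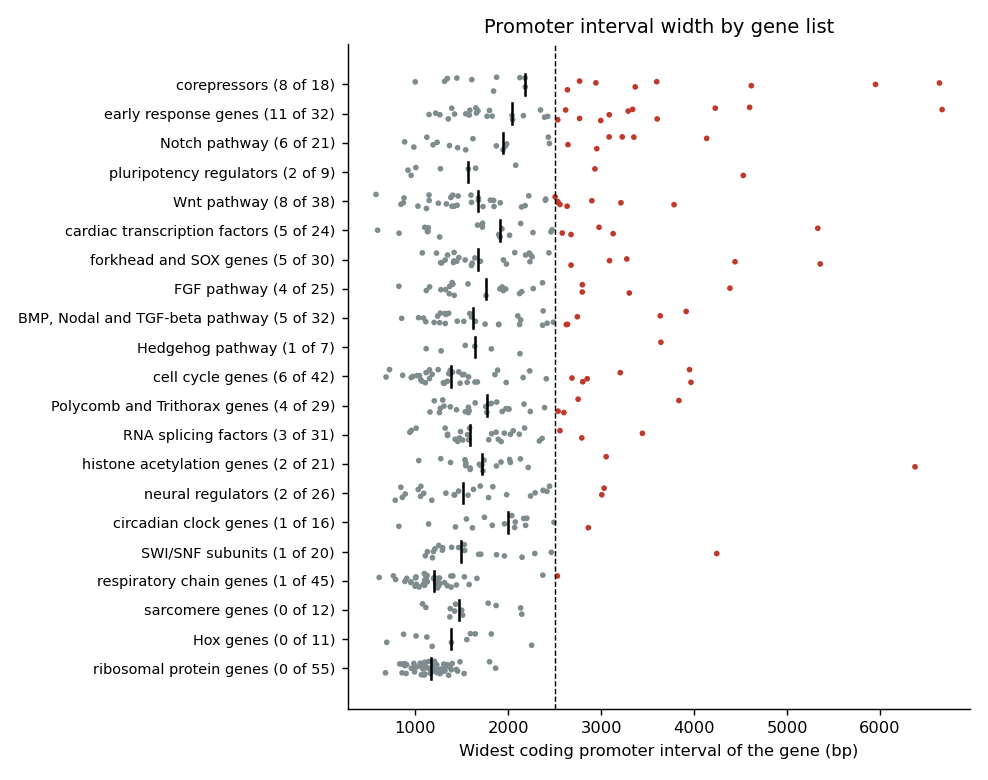
Width of the widest coding promoter interval of each gene (bp), one point per gene, for 21 gene lists ordered by the share of genes with a wide interval (counts in brackets). Red points are at or beyond the threshold of 2500 bp (dashed line) and black bars are list medians, from 2181 bp for corepressors to 1172 bp for ribosomal protein genes.

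The remaining 429 wide intervals belonged to genes on no list. All genes, listed ones included, were therefore also grouped, after the values were seen, by the letters that start the symbol. There were 119 groups with at least 10 genes with a coding promoter interval, and 61 of these had no wide one. Over all these groups, 125 of 3222 genes had a wide interval, so a small group can easily hold none. The highest shares were in small groups, with 4 of 11 for Lrp (mostly relatives of the LDL receptor), 4 of 12 for Klf (zinc finger factors that bind GC boxes), 3 of 11 for Phf, 4 of 17 for Dusp (phosphatases, many acting on MAP kinases) and 4 of 18 for Sema (semaphorins). In the largest groups the shares were 13 of 211 for Slc (solute carriers) and 6 of 307 (1.95%) for Zfp (zinc finger proteins), whose median width was 1155 bp.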

How the data were processed

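ATAC-seq was performed on 2 replicate samples of day 5 CPCs. According to the methods, bowtie2 alignments to mm9 were filtered with samtools and freed of duplicates (Picard 1.136). MACS14 was run on each replicate separately with a fixed read shift. No other correction for the Tn5 cut position is described. Blacklisted peaks were removed, and peaks of a replicate that overlapped one of the other by at least 1 bp were kept (bedtools 2.15), which makes width depend on the caller and on the depth of 1 replicate. The nearest TSS was assigned with HOMER, a step stated for ChIP-Seq peaks. The deposited values are positions and signed TSS distances in bp, with an accession and a symbol. They include no score, and depth per sample is unknown.

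Distinct intervals were counted once (26232 of 26429 lines). Strand and gene models came from GENCODE vM1 and sequence from NCBIM37 (mm9). The TSS was recovered from midpoint, distance and strand, after matching 502 of the 504 genes by symbol (31 of them by an older symbol in a RefSeq table). Composition was computed in 1 kb around the TSS, CpG-dense runs in 200 bp windows at 20 bp steps. A run can exceed the dense block by up to 1 window. Shares carry 95% Wilson, differences of shares 95% Newcombe, and medians 95% order statistic intervals, all treating regions as independent. With 1 shared list no test over samples could be made. The functions were tested on simulated data. Python 3.11.15 and numpy 2.4.6 were used.

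The wide intervals and the gene lists were chosen with earlier results of these data known. Genes named were the 10 widest, the intervals next to the threshold, for each list its wide genes (the 8 widest where there were more), and Isl1, Nkx2-5, Gata4, Tbx5, Smarca4 and Smarcd3. Others are marked, and 1 gene that this rule names is not reported here. Alternatives were the width and distance limits, 1 interval per gene, line counting, GENCODE start sites, window sizes, neighbour distance, gene length and the comparison group. Leaving out intervals on several lines and the class of GC content were added after the data were seen. The Isl1 knockdown cells that the series names were not analysed here.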

Additional observations from a re-analysis of the deposited data

How the results depend on the processing

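Of 72 recomputed values of the 10 main results, 50 stayed inside the interval of the main value (or within 1.5 times for the count). Some of the 50 could not move. Each wide interval belonged to a different gene, so counting 1 interval per gene changed only the others and the share of wide intervals. A change of comparison group likewise changed only the others. No difference whose main interval excluded the value of the others changed sign. Opposite-strand neighbours, whose main difference had an interval that included 0, changed side. They were at 11.5% (others 9.12%) with a width limit of 2000 bp, 10.3% (9.05%) with start sites equal to GENCODE and 9.98% (9.47%) without intervals on several lines. With a width limit of 2000 bp the rule kept 1505 intervals (13.3%), with reaches of 1325 bp downstream and 1068 bp upstream and 15.2% short genes. At 3000 bp it kept 179 (1.58%), with 1912 and 1641 bp. With midpoints within 500 bp of the TSS it kept 311 (2.94%), with a GC content of 66.35%, reaches of 1514 and 1393 bp and opposite-strand neighbours at 12.3% (others 9.73%). A 500 bp window gave a GC content of 68.2% and a CpG ratio of 0.823 (others 64.2% and 0.798), and a 2 kb window 62.25% and 0.714 (others 54.25% and 0.617). Opposite-strand neighbours were at 6.18% within 500 bp (others 8.12%) and 13.7% within 2500 bp (others 11.0%). Genes of at most 3 kb made up 8.76% (others 5.21%). Counting every line gave 547 intervals, and GENCODE start sites 552.

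Of 21 gene lists, 20 stayed on the same side of the share of all genes at either width limit. The exceptions were the sarcomere list at 2000 bp (16.7% against 13.5%) and the circadian list at 3000 bp (0% against 1.63%). Every interval of at least 3000 bp also passes the limit of 2500 bp. The Hox, sarcomere and ribosomal protein lists, which held none at 2500 bp, therefore had to stay below the share at 3000 bp. No paired analysis was possible because all samples belong to 1 group and share the list, which holds no value for either replicate, and so neither could be left out. Width depends on an unknown depth, regions found in a single replicate are missing, and confidence intervals cover counting only.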
